A study of Mus musculus with 6 samples.

Results

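The 10 genes described here serve glycolysis and the response to low oxygen: the glucose transporter gene Slc2a1, the glycolytic enzyme genes Hk2, Pfkl, Aldoa, Pgk1, Eno1 and Ldha, the mitochondrial gatekeeper Pdk1, and the hypoxia response genes Vegfa and Bnip3. They were taken by name from the 51733 gene symbols counted in every library, and all 10 passed the filter on low values. RNA came from neural progenitor cells (NPCs) sorted by their Sox2-eGFP signal from dissected neural tubes at E13.5, in mouse midgestation. The wildtype group held 3 sibling control libraries (A, B and C). The YBX1KO group held 3 libraries (D, E and F) from embryos without Ybx1, a constitutive null allele present in every cell, so effects within NPCs and effects of the surrounding embryo cannot be told apart. The labels give C57BL/6 as the strain of both groups, which held mice of either sex and carried the Sox2-eGFP reporter, and Ybx1-KO embryos of this line often have an open brain (exencephaly). Whether a library came from a single embryo or from pooled embryos is not given in the sources used here. The titles give A and B a common first number, and likewise D and E, but every library was treated as independent, so p-values measure the spread between these libraries.

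Glycolysis takes glucose into the cell, phosphorylates it, splits it and oxidises the pieces to pyruvate, which is either reduced to lactate or enters the mitochondria. Hexokinase, phosphofructokinase and pyruvate kinase catalyse its irreversible steps, and glucose transporters set the supply. When oxygen falls, the prolyl hydroxylases (Egln genes) no longer mark the HIF proteins for breakdown, and HIF with its partner Arnt binds the letters ACGTG or GCGTG and raises many glycolytic genes as well as Vegfa, Pdk1 and Bnip3. Neural progenitors are known for high glycolysis, and neurons for oxidative metabolism. Ybx1 is a nucleic acid-binding protein named after the Y-box, a DNA element around the letters ATTGG, and the comparison asks how RNA levels of these genes differ in NPCs without it.

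The libraries held 4743279 to 23883542 counts on genes, with the lowest total in library F. Library F stood apart: 59.5% of its tallied read pairs lay outside genes against 30.6% to 46.8% in the other 5 libraries, and olfactory, vomeronasal and taste receptor genes, which NPCs should lack, summed to 4554 CPM (counts scaled to a library's total) against 22.5 to 96.0. Ybx1 itself stood at 235, 523 and 301 normalized CPM in the controls and at 124, 54.5 and 9.51 CPM in the Ybx1-KO libraries, lower in every Ybx1-KO library but not absent (log2 fold change -2.49, edgeR adjusted p = 0.302, and below 0.05 in 5 of 24 alternatives, 0.0236 by DESeq2 among them). Xist, an RNA of female cells, stood at 734, 3.04 and 479 CPM in controls and at 4.91, 91.6 and 20.3 in Ybx1-KO. The Y-linked genes Ddx3y, Eif2s3y, Kdm5d and Uty summed to 138, 177 and 0.400 CPM against 97.0, 94.9 and 78.5. The makeup by sex thus differed between libraries, and its part in X-linked genes such as Pgk1 and Pdha1 was not tested. All 9 NPC markers, Sox2 and Nes among them, had more than 3 counts in all 6 libraries. Markers of other cells were present too: the 8 neuron markers summed to 2976 to 4406 CPM in controls and 1209 to 3192 in Ybx1-KO, and the 10 erythroid markers to 517 to 1209 and 210.5 to 1225.

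Slc2a1, Hk2 and Pfkl, which act where glucose enters the cell and glycolysis, were each higher in all 3 Ybx1-KO libraries than in all 3 controls. The next enzymes down the pathway, Aldoa, Pgk1, Eno1 and Ldha, overlapped between the groups, as did Pdk1, Vegfa and Bnip3. Thus 3 of 10 genes did not overlap, all in the direction of higher levels in Ybx1-KO, where 4.99% of the 21330 tested genes lay wholly above the controls and 8.17% wholly below. Ldha joined them in 9 of the 22 settings in which this was recomputed, among them DESeq2, RLE scaling and the fits without control C. None of the 10 passed the test, edgeR's quasi-likelihood F test adjusted by Benjamini-Hochberg over all tested genes, with a limit of 0.05 on the adjusted p and 1.5 on the fold. It called 0 of the 21330 genes (0%), where DESeq2 called 118 higher and 96 lower, Hk2 and Slc2a1 of the 10 among the higher. At an unadjusted p below 0.05 the same 3 of the 10 genes passed, all higher, beside 11.2% of all tested genes (6.96% higher and 4.27% lower). The median log2 fold change of the 10 genes was 0.11. It was 0.31 over all tested genes and -0.09 over the 9738 tested genes whose mean CPM reached that of the lowest of the 10. Of the 10 genes, 3 had a log2 fold change below 0, where 38.7% of all tested genes did and 56.9% of those 9738. The count was 5 with no filter on low counts, and 5, or 6 on the genes tested in all 6 libraries, without control B. In bulk RNA, fewer cells of a type and less RNA per cell cannot be told apart.

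**Figure D1:**
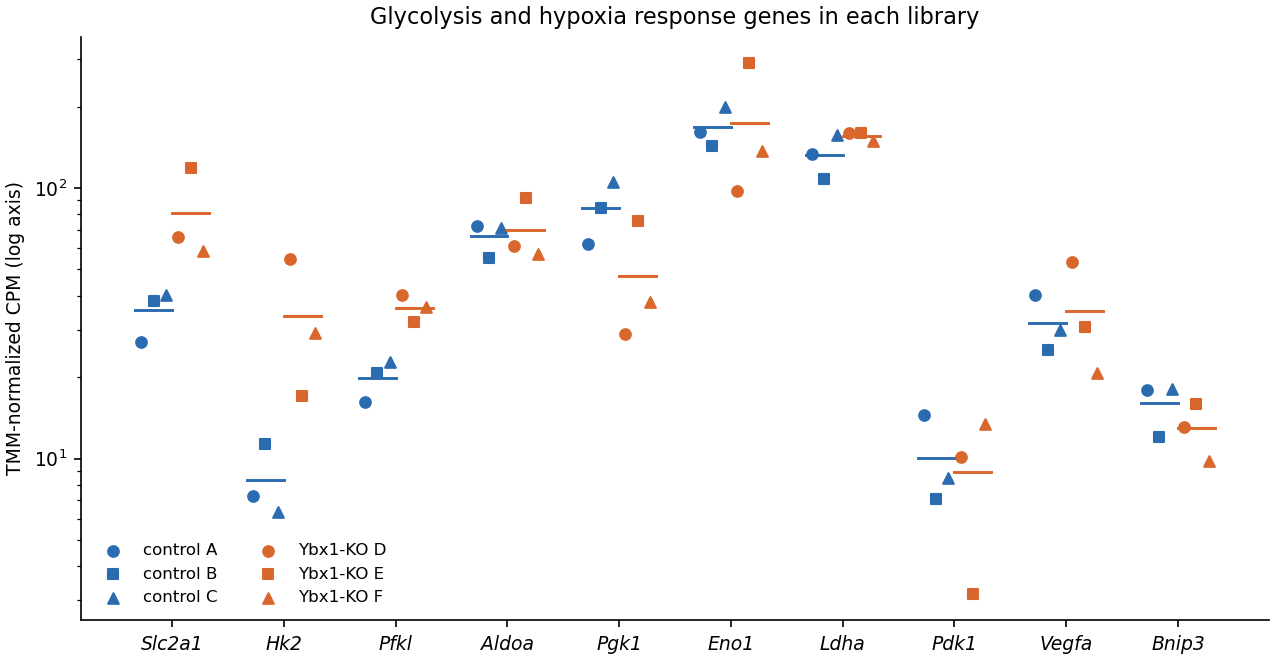
Normalized CPM (log axis) of the 10 genes in each of the 6 libraries, blue for control A, B and C, orange for Ybx1-KO D, E and F, with bars at the group means. Under this TMM scaling, Slc2a1, Hk2 and Pfkl have every orange point above every blue point, and the other 7 genes do not.

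The promoters of the 3 genes that were higher together are printed with that of Ldha, which overlapped between the groups and whose window holds the most matches along with that of Bnip3. Each sequence is the 250 bases before the gene's RefSeq start (GRCm38.p6), 5′ to 3′ on the gene's strand, with matches to ACGTG or GCGTG on either strand in capitals. Slc2a1 is chr4:119108495-119108744 on the plus strand, Hk2 chr6:82774455-82774704 on the minus strand, Pfkl chr10:78009808-78010057 on the minus strand, and Ldha chr7:46845554-46845803 on the plus strand.
Slc2a1: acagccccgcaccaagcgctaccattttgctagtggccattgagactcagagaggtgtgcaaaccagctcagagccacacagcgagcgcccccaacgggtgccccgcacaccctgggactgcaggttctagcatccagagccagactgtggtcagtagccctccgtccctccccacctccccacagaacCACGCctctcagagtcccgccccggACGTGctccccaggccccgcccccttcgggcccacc
Hk2: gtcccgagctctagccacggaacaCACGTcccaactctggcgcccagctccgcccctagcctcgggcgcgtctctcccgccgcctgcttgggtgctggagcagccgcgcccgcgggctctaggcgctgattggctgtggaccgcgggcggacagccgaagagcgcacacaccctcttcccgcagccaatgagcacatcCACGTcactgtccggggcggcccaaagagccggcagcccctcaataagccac
Pfkl: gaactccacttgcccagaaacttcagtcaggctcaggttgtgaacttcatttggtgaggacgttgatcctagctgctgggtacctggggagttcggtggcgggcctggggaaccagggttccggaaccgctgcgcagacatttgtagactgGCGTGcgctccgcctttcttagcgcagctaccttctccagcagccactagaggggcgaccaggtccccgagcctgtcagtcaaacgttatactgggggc
Ldha: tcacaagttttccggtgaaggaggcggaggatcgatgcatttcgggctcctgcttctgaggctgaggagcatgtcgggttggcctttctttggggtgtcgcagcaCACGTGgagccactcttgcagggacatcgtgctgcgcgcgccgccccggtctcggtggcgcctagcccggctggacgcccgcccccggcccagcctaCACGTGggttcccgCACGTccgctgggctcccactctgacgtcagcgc

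Slc2a1 had 2 matches, Hk2 2 and Pfkl 1, while Ldha had 5. The E-box letters CACGTG read the same on both strands, so each copy in the Ldha window counts as 2 matches. Either motif was found in 14 of the 17 windows of the 10 genes, where 38.6% of the 32851 RefSeq windows of this length held it, and 16.6% held ACGTG. Matches therefore stood in front of genes that were higher in Ybx1-KO and of genes that overlapped alike: Bnip3 had 5 and Pgk1 2. The Y-box core ATTGG, searched on both strands after the first results were seen, occurred 2 times before Hk2 and 0 times before Slc2a1, Pfkl and Ldha. It lay in 9 of the 17 windows and in 33.8% of all windows. Some windows of Eno1 and of Aldoa overlapped, so the same letters counted more than once for both motifs. No share over windows of like GC content was computed. These are matches of letters, not measured binding.

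Slc2a1 (chr4:119108711-119137983, plus strand; gene coordinates here are GENCODE M21 on GRCm38) encodes GLUT1, the basal glucose transporter of the brain and its vessels. Its level was 27.1, 38.4 and 40.4 normalized CPM in controls and 65.8, 118.5 and 58.8 CPM in Ybx1-KO, with libraries in alphabetical order here and below. The lowest Ybx1-KO library thus lay above the highest control, and under TMM scaling E was the highest of all. Group means were 35.3 ± 7.20 and 81.0 ± 32.6 CPM (SD, n = 3 each), 2.30-fold higher in Ybx1-KO. The log2 fold change of 1.20 (SE 0.40, 95% interval 0.35 to 2.05) had an adjusted p of 0.405 by edgeR, and the exact permutation p was 0.1, the smallest that 3 against 3 can give. Vessels are rich in GLUT1. Endothelial markers summed to 40.8, 19.8 and 23.5 CPM in controls and to 11.4, 12.2 and 56.2 in Ybx1-KO, with Tie1 at 0 in D and Emcn at 0 in E. The signal of F in genes that NPCs should lack was not subtracted from these sums. The part of vessel cells in the level of Slc2a1 was not tested.

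Hk2 (chr6:82725025-82774454, minus strand) encodes hexokinase 2, the inducible enzyme that traps glucose in the cell by phosphorylating it. Its level was 7.27, 11.3 and 6.35 CPM in controls and 54.8, 17.1 and 29.1 CPM in Ybx1-KO. D was far above the others and E the lowest Ybx1-KO library, still above control B. Means were 8.30 ± 2.63 and 33.7 ± 19.3 CPM (SD, n = 3), 4.05-fold higher in Ybx1-KO. This was the largest difference among the 10 genes, with a log2 fold change of 2.02 (SE 0.47, interval 1.02 to 3.02), an unadjusted p of 0.000562 and an adjusted p of 0.235 by edgeR. The adjusted p was 0.0135 by DESeq2, 0.0496 with no filter on low counts and 0.000484 without library E. Without D the log2 fold change was 1.38.

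Pfkl (chr10:77986947-78010083, minus strand) encodes the liver-type subunit of phosphofructokinase, the main control point of glycolysis. It stood at 16.1, 20.7 and 22.8 CPM in controls and at 40.1, 32.0 and 36.4 CPM in Ybx1-KO, so both groups were tight and apart. Means were 19.9 ± 3.38 and 36.1 ± 4.05 CPM (SD, n = 3), 1.82-fold higher in Ybx1-KO. The log2 fold change was 0.86 (SE 0.37, interval 0.08 to 1.64), with an unadjusted p of 0.0318 and an adjusted p of 0.443 by edgeR.

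Receptor genes gave an estimate of the signal that any gene gets per kb of exon. In library F it made up 11.1% of the counts of Hk2, 9.62% of those of Pfkl and 3.10% of those of Slc2a1, and 30.2% of those of Pdk1. With it subtracted in every library the log2 fold changes were 2.07 for Hk2, 0.92 for Pfkl and 1.26 for Slc2a1.

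Aldoa (chr7:126795234-126800751, minus strand) encodes the main aldolase, which splits the sugar bisphosphate. Its levels were 72.5, 55.2 and 71.4 CPM in controls and 61.3, 91.8 and 56.9 in Ybx1-KO, spread over the same range (log2 fold change 0.08, interval -0.72 to 0.87, adjusted p = 0.939 by edgeR). Pgk1 (chrX:106187100-106203699, plus strand), which makes the first ATP of the pathway, had the lowest fold change of the 10 genes. It stood at 62.3, 84.5 and 105 CPM in controls and at 28.9, 75.5 and 37.9 in Ybx1-KO. D and F lay below every control and E above control A. The log2 fold change was -0.82 (SE 0.43, interval -1.73 to 0.08, adjusted p = 0.450 by edgeR), and -1.41 without E. The makeup of the null allele is not given in the sources used here, and whether reads from it reach the Pgk1 row was not tested.

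Eno1 (chr4:150236721-150248879, plus strand) encodes the ubiquitous enolase. It had 161, 143 and 200 CPM in controls and 97.1, 289 and 137 in Ybx1-KO, where D was the lowest and E the highest of all 6 libraries (log2 fold change 0.06, interval -0.92 to 1.03). Its near-identical copy Eno1b had 9, 289 and 391 counts in controls and 14, 13 and 45 in Ybx1-KO, and how reads of both loci were divided in counting is uncertain. Added per exon length, the copy made up 0.753% to 21.9% of both in single libraries, so the sum does not separate the groups either: 30.1, 33.6 and 47.5 against 18.9, 54.5 and 28.8 normalized FPKM.

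Ldha (chr7:46841475-46855627, plus strand) encodes the lactate dehydrogenase subunit that favours lactate production. It stood at 134, 108 and 157 CPM in controls and 159, 160 and 149 CPM in Ybx1-KO (log2 fold change 0.23, SE 0.39, interval -0.59 to 1.06, adjusted p = 0.787 by edgeR). F lay below control C, so the groups overlapped under TMM scaling. Per exon length Ldha was the highest of the 10 genes in both groups, with mean normalized FPKM of 40.1 in controls and 47.2 in Ybx1-KO. In controls Pgk1 (37.5) and Eno1 (31.2) followed, and in Ybx1-KO Eno1 (32.4), Aldoa (24.1), Slc2a1 (23.1) and Pgk1 (21.1). Neighbours in this order overlapped over the 3 libraries, except, in controls, Eno1 and Aldoa (22.8), Aldoa and Slc2a1 (10.1), Bnip3 (7.07) and Pfkl (2.98), and Pfkl and Hk2, and, in Ybx1-KO, Pgk1 and Vegfa (8.16) and Pfkl (5.42) and Pdk1. Hk2, at 1.39 and 5.64 FPKM, and Pdk1, at 1.29 and 1.15, were the lowest in controls. Aldoa has 2 GENCODE entries under its symbol, which makes its length uncertain.

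Pdk1 (chr2:71873224-71903858, plus strand) encodes a kinase that turns off pyruvate dehydrogenase and so keeps pyruvate out of the mitochondria. It was low and scattered, at 14.5, 7.09 and 8.45 CPM in controls and 10.2, 3.17 and 13.4 in Ybx1-KO (log2 fold change -0.17, interval -1.40 to 1.06). Vegfa (chr17:46016993-46032369, minus strand), the HIF-induced growth factor of blood vessels, stood at 40.2, 25.1 and 30.0 CPM in controls and at 53.5, 30.8 and 20.7 in Ybx1-KO (log2 fold change 0.14, interval -0.73 to 1.01). Under TMM scaling D was the highest and F the lowest of the 6 libraries. Bnip3 (chr7:138890836-138909519, minus strand), a mitophagy receptor induced by hypoxia, had 17.9, 11.98 and 18.1 CPM in controls and 13.1, 15.9 and 9.79 in Ybx1-KO (log2 fold change -0.31, interval -1.22 to 0.61). The hypoxia response genes without an enzyme role in glycolysis therefore showed no difference detectable at this spread.

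The isoenzyme makeup of the pathway was compared within each library as the log2 ratio of a gene's counts to those of its paralogue, which does not depend on the scaling between libraries. Of 11 ratios, 6 were higher in every Ybx1-KO library than in every control and 0 were lower in every one. No share over other gene pairs was computed to set beside this count. The ratios are not independent: Pfkl enters both of its ratios, and Hk2 and Pfkl were themselves above every control. Each of the 6 had an exact permutation p of 0.1, the smallest possible, and 0.183 after adjustment over the 11 ratios. The ratio Hk2 to Hk1 was -1.23, -0.46 and -1.32 in controls and 1.70, 0.56 and 0.65 in Ybx1-KO. Per exon length, Hk2 made up 37.9%, 51.0% and 36.3% of both hexokinases in controls and 82.3%, 67.9% and 69.1% in Ybx1-KO. Hk1, the housekeeping hexokinase, stayed between 11.6 and 18.6 CPM in all 6 libraries, so the sum of both was higher where Hk2 was.

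Phosphofructokinase differed in makeup while its summed level kept to a narrow range under TMM scaling. Summed per exon length, Pfkl, Pfkm (the muscle type) and Pfkp (the platelet type) gave 15.8, 15.1 and 14.2 normalized FPKM in controls and 13.7, 14.5 and 14.0 in Ybx1-KO. Pfkl made up 15.3%, 20.6% and 24.0% of this sum in controls and 43.9%, 33.1% and 38.9% in Ybx1-KO. The log2 ratio of Pfkl to Pfkp was 1.54 higher in Ybx1-KO and that to Pfkm 1.27 higher, both without overlap. Pfkp had a log2 fold change of -0.69 and Pfkm of -0.40, both with overlapping groups (adjusted p = 0.456 and 0.615 by edgeR).

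In lactate dehydrogenase it was the paralogue that stood apart. Ldhb, the subunit that favours the reverse reaction to pyruvate, stood at 168, 173.5 and 282 CPM in controls and at 127, 130 and 67.0 CPM in Ybx1-KO, below every control (log2 fold change -0.94, SE 0.43, unadjusted p = 0.0446, adjusted p = 0.443 by edgeR). Ldha made up 27.4%, 22.8% and 20.9% of both per exon length in controls and 37.2%, 37.0% and 51.4% in Ybx1-KO. The log2 ratio was -0.33, -0.69 and -0.84 in controls and 0.32, 0.31 and 1.16 in Ybx1-KO.

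Aldolase showed the largest difference in ratio, 3.83 on the log2 scale. This difference ran from 3.08 to 4.95 without a library and was 5.05 with background subtracted. In D, E and F the ratio rested on 4, 34 and 13 counts of Aldoc. Aldoc, the brain aldolase known from radial glia and astrocytes, had 36.9, 3.46 and 56.9 CPM in controls and 0.447, 3.48 and 1.82 in Ybx1-KO (log2 fold change -4.07, SE 0.84, unadjusted p = 0.00016, adjusted p = 0.168 by edgeR). Aldoc had an adjusted p below 0.05 in 7 of 24 alternatives, 0.00398 by DESeq2, 7.63e-09 with no filter on low counts, and the others without B, D or E. Control B was as low as E, so the groups overlapped in level, while the log2 ratio Aldoa to Aldoc (0.98, 4.00 and 0.33 against 7.10, 4.72 and 4.97) did not. Bnip3 to its relative Bnip3l was 0.84 higher in Ybx1-KO on the log2 scale, through lower Bnip3l. The 5 overlapping ratios were Eno1 to Eno2 (0.76 higher), Slc2a1 to Slc2a3 (1.07 higher), Pdk1 to Pdk2 and to Pdk3 (differences of 0.11 and -0.15) and Vegfa to Vegfb (0.15 higher), with exact permutation p of 0.2 to 0.9. Leaving out a library moved these differences to 0.55 to 1.04 for Eno1 to Eno2, 0.29 to 1.77 for Slc2a1 to Slc2a3, -0.55 to 1.21 and -0.78 to 0.69 for the Pdk1 ratios, and -0.43 to 0.67 for Vegfa to Vegfb.

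**Figure D2:**
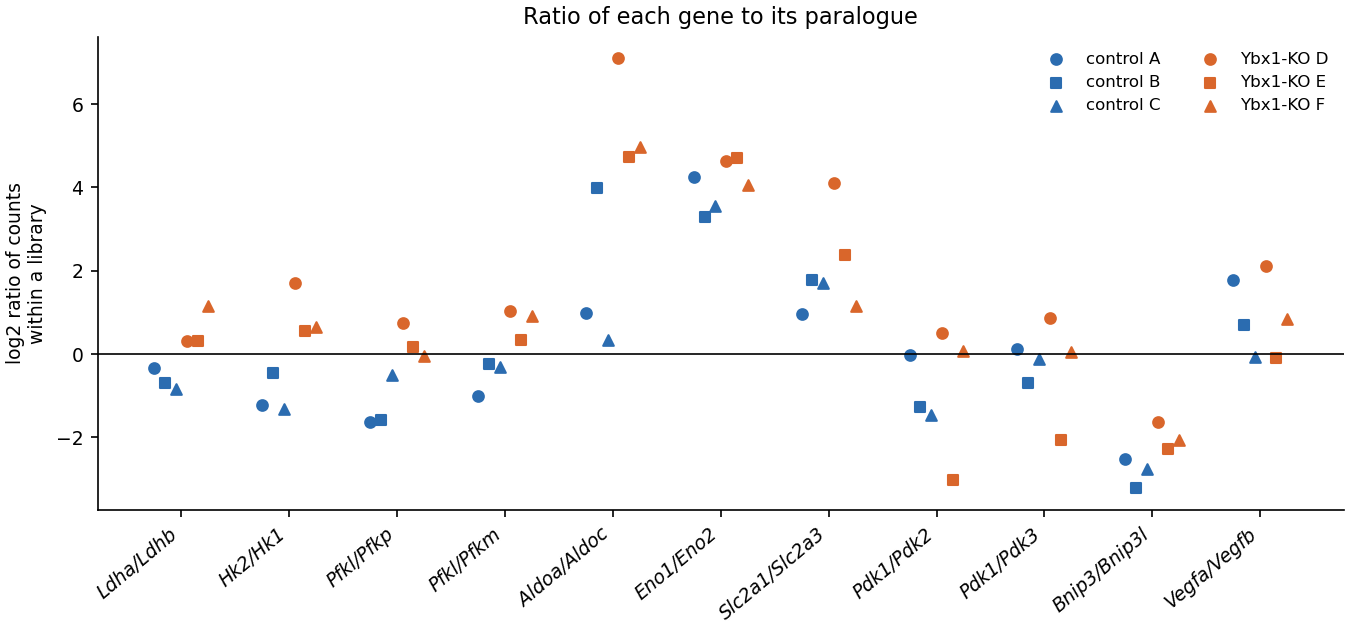
Log2 ratio of counts of each gene to its paralogue within each library, blue for control A, B and C and orange for Ybx1-KO D, E and F. The orange points lie wholly above the blue points for Ldha/Ldhb, Hk2/Hk1, both Pfkl ratios, Aldoa/Aldoc and Bnip3/Bnip3l, 6 of 11 ratios.

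**Figure D3:**
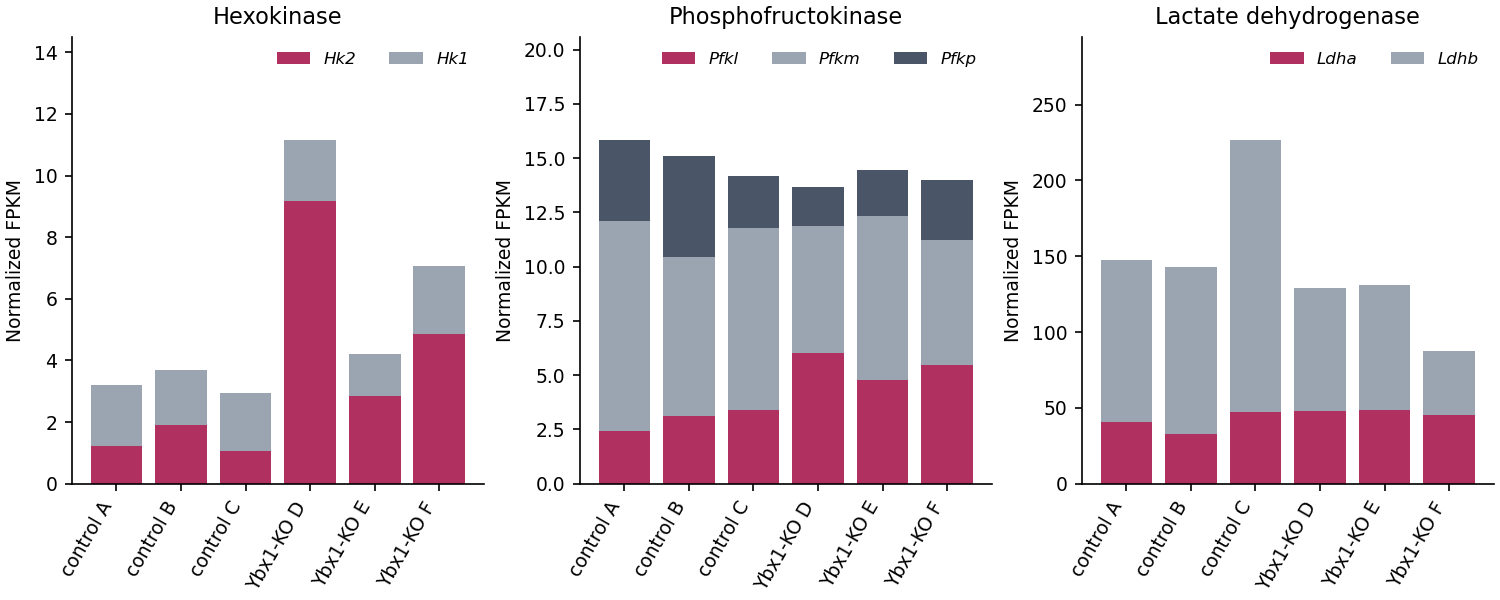
Normalized FPKM of hexokinase, phosphofructokinase and lactate dehydrogenase genes stacked by library, with Hk2, Pfkl and Ldha in red. Under TMM scaling the phosphofructokinase total stays between 13.7 and 15.8 FPKM while its Pfkl part is larger in every Ybx1-KO library.

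Markers of cell types also differed between libraries. Among NPC markers, Nes stood at 63.0, 129 and 52.6 CPM in controls and 283, 213 and 165 in Ybx1-KO, and Hes5 at 24.0, 20.2 and 29.8 against 70.0, 40.9 and 42.1, both above every control, while Sox2 had a log2 fold change of -0.01 and the sums of the 9 NPC markers overlapped (1438 to 1607 against 1090 to 1845 CPM). Of the 8 neuron markers, 7 had a log2 fold change below 0 (87.5%), where 38.7% of all tested genes did. Over the 9738 tested genes whose mean CPM reached that of the lowest of the 10, the share was 56.9%. Snap25 and Syt1 were below every control, as were 8.17% of all tested genes and 13.1% of those 9738. Above every control, as Nes and Hes5 were, lay 4.99% of all tested genes and 4.82% of those 9738. Mesenchyme markers summed to 871, 133 and 217 CPM in controls and 112, 124 and 76.5 in Ybx1-KO. The Ybx1-KO sums lay below every control, with 0 of 7 markers at 0 in any library. All 7 had a log2 fold change below 0, and 5 (71.4%) were lower at an unadjusted p below 0.05 by edgeR. At that p 4.27% of all tested genes and 8.05% of those 9738 were lower. Myeloid markers summed to 55.7, 10.7 and 15.6 against 3.57, 6.54 and 37.6. In F, receptor genes gave a background of 3.78 counts per kb of exon, against 0.0376 to 0.362 in the other libraries. It was not subtracted from the marker sums. The part of the marked cell types in the differences between groups was not tested.

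The other glycolysis genes had no common direction. Of the 12, all tested, 4 had a log2 fold change above 0 and 8 below (66.7%), 0 passed edgeR's test, and the median was -0.39. Of all tested genes 38.7% lay below 0, and of the 9738 genes defined above 56.9%. An unadjusted p below 0.05 was found for 2, Aldoc and Ldhb, both lower. At that p 4.27% of all tested genes and 8.05% of those 9738 were lower. Pkm, the pyruvate kinase of the last irreversible step, was above every control, at 166, 236 and 180 CPM against 528, 302.5 and 255 (log2 fold change 0.90, SE 0.45, adjusted p = 0.450 by edgeR). Without D its log2 fold change was 0.45. Gapdh, Gpi1 and Tpi1 had log2 fold changes of 0.21, 0.21 and 0.45, with overlapping groups. Of the 8 below 0, Pgam1 (-0.37) and Bpgm (-0.68) act at steps the 10 genes do not cover, and the other 6 are isoenzymes of the 10: Aldoc, Ldhb, Eno2 (-0.78), Pfkp, Pfkm and Hk1, the last with a sign that turns with the scaling.

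Of 5 other glucose and lactate transporters, 4 were tested, all with log2 fold changes above 0 and none called by edgeR. Over all tested genes 13069 of 21330 lay above 0, and over the 9738 genes defined above 4193 did. Slc16a3, the exporter of lactate from glycolytic cells, stood at 1.98, 2.12 and 3.50 CPM in controls and 2.46, 12.7 and 9.79 in Ybx1-KO (log2 fold change 1.71, unadjusted p = 0.0393, adjusted p = 0.443 by edgeR), with D inside the control range. Slc2a4, the insulin-regulated transporter, was above every control (3.02, 2.12 and 4.35 against 10.3, 5.93 and 7.83 CPM). Slc2a3, the neuronal transporter, had 13.9, 11.2 and 12.3 CPM against 3.80, 22.6 and 26.3. Among 5 regulators of phosphofructokinase, 4 had a log2 fold change above 0, 0 passed the test, and Pfkfb2 was below every control (log2 fold change -0.93, adjusted p = 0.450 by edgeR).

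Of 12 listed genes that carry pyruvate into the mitochondria and to acetyl-CoA, or regulate that step beside Pdk1, 11 were tested and 0 called by edgeR. A log2 fold change below 0 was found in 9 of them (81.8%), where 38.7% of all tested genes had one. Of the 9738 tested genes whose mean CPM reached that of the lowest of the 10, 56.9% had one. Of the 9, Pdk2, Pdk3, Pdp1 and Pdp2 are regulators, and Pdk2 and Pdk3 turned in sign in some alternatives. Mpc2 (0.13) and Pdhx (0.30) had log2 fold changes above 0, with overlapping groups. Below every control lay 3 of the 11 (27.3%), where 8.17% of all tested genes and 13.1% of the 9738 did. Of these 3, Mpc1 had too low a mean CPM to be among the 9738. Dld, a subunit of pyruvate dehydrogenase, stood at 105, 120.5 and 104 CPM against 41.2, 79.1 and 46.0 (log2 fold change -0.99, SE 0.39, unadjusted p = 0.0225, adjusted p = 0.438 by edgeR). Mpc1, a subunit of the mitochondrial pyruvate carrier, had 6.00, 4.65 and 9.85 CPM against 2.23, 1.74 and 3.08, and Pdha1, the catalytic subunit of the dehydrogenase, 59.7, 54.5 and 47.6 against 33.4, 39.1 and 22.7.

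**Figure D4:**
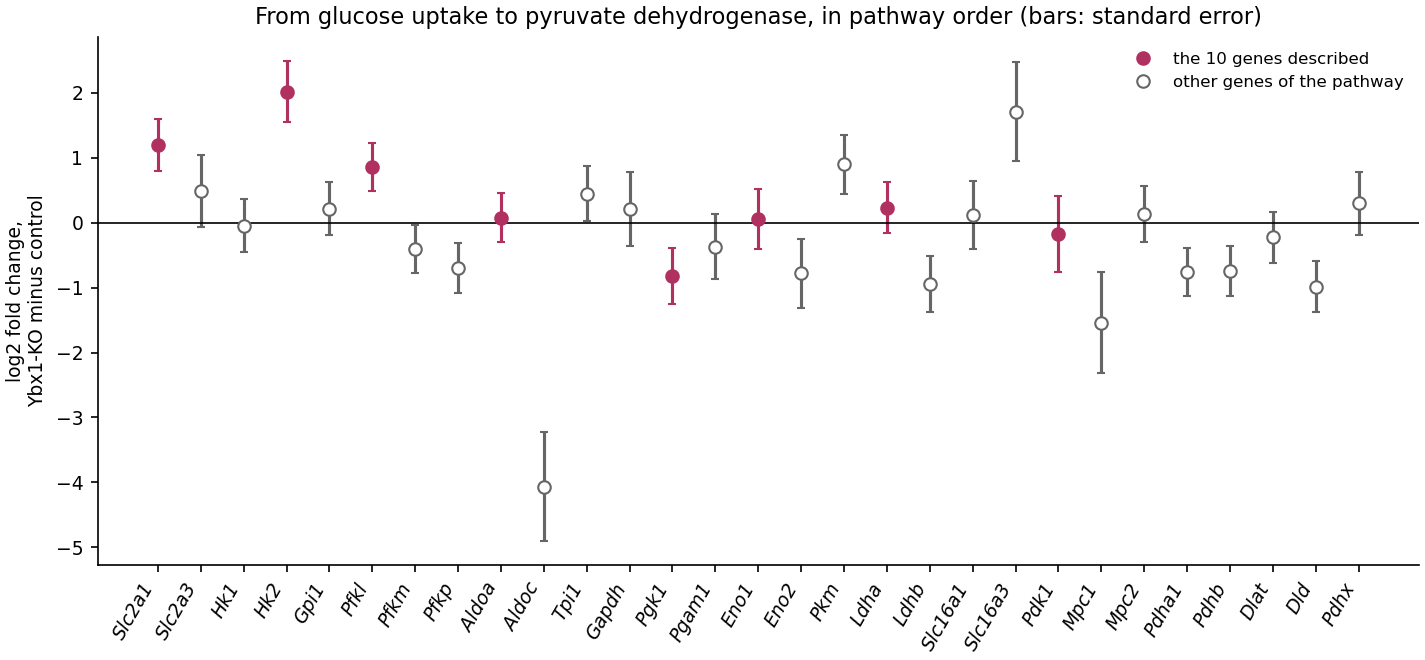
Log2 fold change (Ybx1-KO minus control, bars are the standard error) of genes from glucose uptake to pyruvate dehydrogenase in pathway order, red for genes among the 10 and open grey for others. Slc2a1 (1.20), Hk2 (2.02) and Pfkl (0.86) at the left are above 0, while Hk1 (-0.04), Pfkm (-0.40) and Pfkp (-0.69) there are below. At the right, Mpc1 (-1.54), Pdha1 (-0.76), Pdhb (-0.75), Dlat (-0.22) and Dld (-0.99) are below, while Mpc2 (0.13) and Pdhx (0.30) are above. Between them, Pkm (0.90) and Slc16a3 (1.71) are also above 0. None is past the adjusted threshold.

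The HIF pathway gave no common direction. All 10 listed genes were tested, and 0 passed the test. A log2 fold change above 0 was found in 4 and below 0 in 6 (60%). Of all tested genes 38.7% lay below 0, and of the 9738 genes defined above 56.9%. Hif1a, the oxygen-regulated subunit, stood at 102, 114 and 60.1 CPM against 64.1, 72.1 and 69.5 (log2 fold change -0.43). Egln3, a hydroxylase that HIF itself induces, was above every control at low levels (5.86, 5.90 and 4.25 against 7.26, 8.59 and 8.95 CPM). Egln2 had an unadjusted p of 0.0118 through D alone, at 257.5 CPM where the other 5 libraries held 28.9 to 62.5, and its log2 fold change of 1.61 was 0.33 without D. Without E it was called by edgeR (log2 fold change 1.97, adjusted p = 0.00741).

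Of 23 other genes known to be induced by hypoxia, 18 were tested and 0 called by edgeR, and the median was -0.16. A log2 fold change below 0 was found in 11 (61.1%) and above 0 in 7. Of all tested genes 38.7% lay below 0, and of the 9738 genes defined above 56.9%. The unadjusted p was below 0.05 in 3 (16.7%), all lower in Ybx1-KO. Of all tested genes 4.27% were lower at that p, and of those 9738 genes 8.05%. Vldlr, a lipoprotein and reelin receptor, stood at 68.3, 45.9 and 38.1 CPM in controls and 8.82, 26.5 and 20.0 in Ybx1-KO (log2 fold change -1.46, SE 0.44, adjusted p = 0.362 by edgeR, and 0.0122 without E). Bnip3l, a mitophagy receptor also used in red cell maturation, stood at 103, 112 and 122 against 40.5, 77.8 and 41.0 (log2 fold change -1.08, SE 0.40, adjusted p = 0.432 by edgeR). The part of red cells was not tested. Sums of the 10 erythroid markers overlapped through D (1225 CPM), as E (505) and F (210.5) lay below every control. At an unadjusted p below 0.05 by edgeR, 3 of the 10 erythroid markers were lower and 1 higher. At that p 4.27% of all tested genes were lower and 6.96% higher. Lox, a collagen cross-linking enzyme, rested on control A (32.9 CPM, the library with the most mesenchyme markers). Its log2 fold change was -2.52, -0.96 without A and -5.10 without D. The edgeR adjusted p was 2.66e-08 without D and 0.0423 with no filter on low counts. Ankrd37 and Ndrg1 had log2 fold changes of -1.28 and -1.57 with overlapping groups. Adm, Car9, Car12, Angptl4 and Stc2, often used as hypoxia markers, were too low to be tested.

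Of 9 other genes of the VEGF family and its receptors, 6 were tested and 0 called by edgeR, 4 with a log2 fold change below 0 (66.7%). Of all tested genes 38.7% lay below 0, and of the 9738 genes defined above 56.9%. Nrp1, a co-receptor for Vegfa, stood at 55.8, 22.8 and 35.3 CPM against 8.93, 29.7 and 14.1 (log2 fold change -1.10, unadjusted p = 0.0335, adjusted p = 0.443 by edgeR). Without E the log2 fold change was -1.80 and the adjusted p 0.0227 by edgeR. The main Vegfa receptors Flt1 and Kdr did not reach the filter.

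The 10 genes did not move as a unit across libraries. As a description over 6 libraries that share their groups and depth, the Pearson correlation of each gene with the mean standardized profile of the other 9 ran from -0.64 for Pdk1 to 0.79 for Ldha. Hk2 and Pfkl correlated at 0.90 and Slc2a1 and Pfkl at 0.79, Eno1 and Aldoa at 0.83 and Eno1 and Pgk1 at 0.72, while Hk2 and Pgk1 were at -0.89. The summed level of all 10 genes was 552.5, 505 and 659 CPM in controls and 584, 834 and 549 CPM in Ybx1-KO. Under TMM scaling E was thus the highest and the groups overlapped. The genes most like the mean profile of the 10 were Gpr137, Gm20033, Acadvl, Hist1h3h and Lrp10, with Pearson r of 0.95 to 0.98 over the 6 libraries. They were picked as the highest of all tested genes, so these values show no link to the 10. Hist1h3h lay near the floor, at 0.189, 0.0461 and 0.700 CPM in controls and 0.670, 1.33 and 0.140 in Ybx1-KO.

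Under 24 alternatives of test, scaling, filter and libraries, Slc2a1, Hk2 and Pfkl kept a log2 fold change above 0 each time. It ranged from 0.75 to 1.39 for Slc2a1, from 1.38 to 2.34 for Hk2 and from 0.70 to 1.09 for Pfkl. An adjusted p below 0.05 was reached by Hk2 in 4 of the 24 and by Slc2a1 in 1, DESeq2 (0.0449), and by Pfkl in 0. The 4 of Hk2 hold the fit without E under both filters used when a library was left out. Pgk1 and Bnip3 were below 0 and Ldha above 0 in all 24. Aldoa, Eno1, Pdk1 and Vegfa changed sign in some.

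**Figure D5:**
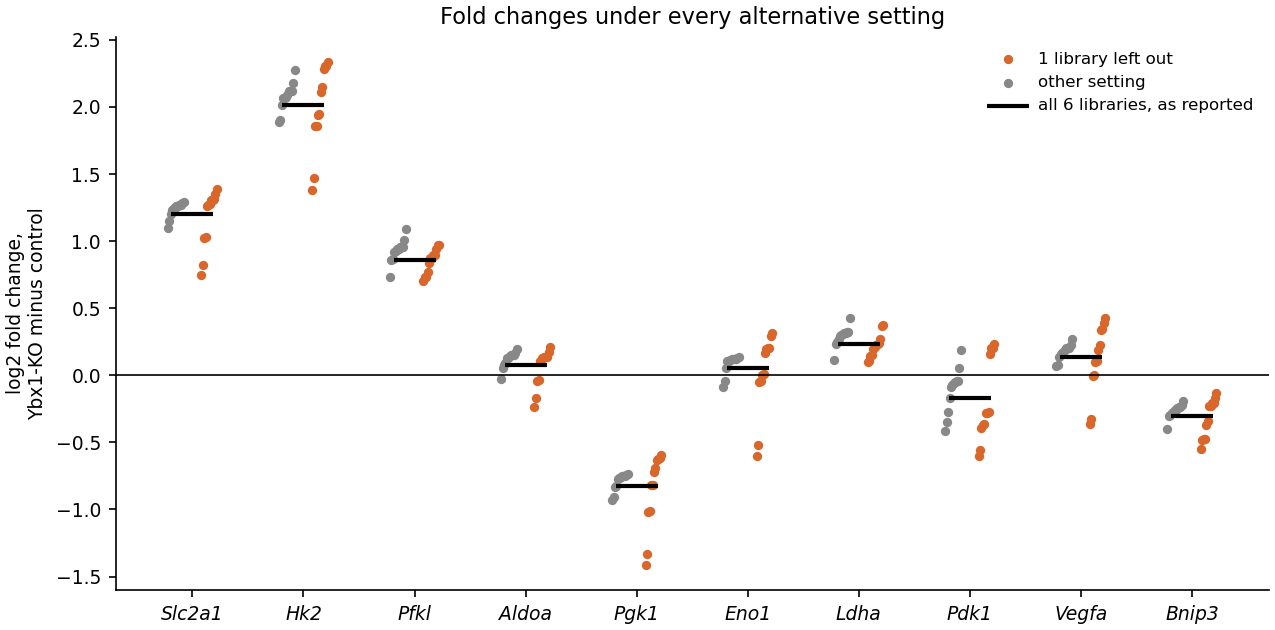
Log2 fold change (Ybx1-KO minus control) of each of the 10 genes with all 6 libraries (black bar), with 1 library left out (orange) and under other settings (grey). Hk2 stays between 1.38 and 2.34, Slc2a1 between 0.75 and 1.39 and Pfkl between 0.70 and 1.09, while Aldoa, Eno1, Pdk1 and Vegfa lie on both sides of 0.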

How the data were processed

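RNA-seq of Sox2-positive NPCs from neural tubes at E13.5 comprised 6 libraries, 3 per genotype. The authors mapped read pairs and counted them per gene with HTSeq 0.6.1p1 against GENCODE gene models. The deposited tables hold these raw counts by gene symbol, a table per library, without normalization, filter or pooling. The submitters' processing notes name the builds mm10 and GRCm38.p5. The aligner and the strand setting of the counting are not given in the sources used here, so overlapping genes and near-identical copies are uncertain. The counter's tallies of read pairs outside genes were kept out of library sizes and used only to describe the libraries.

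Counts were normalized by TMM and fitted for all genes with edgeR 4.0.16 (quasi-likelihood test, Benjamini-Hochberg adjustment) in R 4.3.3, without covariates. The filter kept genes whose mean FPKM exceeded 1 in controls or in Ybx1-KO, over the exon union of GENCODE M21 on GRCm38, which matched 47624 of the 51733 symbols directly and 359 by an older symbol. A call required an adjusted p under 0.05 together with a fold over 1.5, as in the study. The alternatives included limma-voom (3.58.1), which the study used, and DESeq2 (1.42.0), 3 scalings, filters, offsets, a background subtraction and leaving out each library. Each library was left out with the filter applied anew and again on the genes tested in all 6 libraries. Both fits count among the alternatives, so these are not all distinct settings. Ratios and single genes used two-sided exact permutation tests, on log2(CPM + 0.5) for genes. Scripts were tested on simulated data. A count of 3, taken as the floor, was 0.126 CPM in the deepest library and 0.632 in the shallowest, for counting error only. No molecular identifiers are given for the reads. Promoter sequences are RefSeq's (GRCm38.p6), and all 10 genes matched. Figures used matplotlib 3.10.9 in Python 3.11.15.

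The 10 genes and all lists were chosen with earlier results of these data known. Named were the 10 genes, Ybx1, their paralogues and copies, list genes at an unadjusted p below 0.05 or, of the rest, the 3 largest changes per list, and the 5 genes most like the 10. Others were named where a count was broken down. A further hypoxia gene of the lists is not reported here.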

Additional observations from a re-analysis of the deposited data

Results flagged for a closer look

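Among the tallies outside the gene counts, library F (Ybx1-KO) had 59.5% of its read pairs outside genes, above the 36.2% to 46.8% of the controls, whereas D and E had 30.6% and 32.3%. These read pairs are not in the counts of the 10 genes. In F the estimate from receptor genes still made up 1.22% (Ldha) to 30.2% (Pdk1) of the counts of the 10 genes. The 3 genes that lay above every control, Slc2a1, Hk2 and Pfkl, had log2 fold changes of 1.39, 2.15 and 0.87 without F.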

How the results depend on the processing

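No paired analysis was possible because no first number in the titles occurs in both groups, and the replicate numbers used here only name libraries. Over all tested genes, edgeR called 0, whereas DESeq2 called 118 higher and 96 lower and edgeR without a filter on low counts 113 and 80. Leaving out a library gave 0 to 531 higher and 0 to 247 lower. Of the 10 genes, DESeq2 called 2 higher (Hk2 and Slc2a1), edgeR without a filter 1 (Hk2), and the fits without a library 0 to 1 (Hk2 without E). Of the 10 genes, 0 lay wholly below the controls, but 1 with scaling by total count only (Pgk1) and 0 to 2 without a library (Pgk1 without A, Bnip3 without B, Pgk1 and Eno1 without E). The causes were not tested. The 6 non-overlapping ratios became 6 to 8, and the median of all tested genes, 0.31, ran from 0.08 to 0.70 over tests, scalings and filters and from -0.066 to 0.47 without a library.

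The log2 fold changes of these genes turned in sign. Eno1 was -0.087 by limma-voom and -0.045 without a filter (-0.61 to 0.31 without a library), Aldoa -0.025 without a filter (-0.24 to 0.21), Pdk1 0.19 by total count and 0.053 with offsets for exon length (-0.60 to 0.23), and Vegfa -0.36 to 0.43 without a library. Slc16a1 was -0.075 without a filter (-0.39 to 0.35) and Flt4 -0.51 by limma-voom (-0.38 to 2.43). Hk1 was 0.061 by DESeq2, 0.062 by RLE, 0.048 by upper quartile, 0.23 by total count, 0.059 with a CPM filter, 0.027 with FPKM scaled by TMM, 0.042 on protein-coding genes and 0.17 with length offsets (-0.20 to 0.13). Pdk3 was 0.00314 by DESeq2, 0.00353 by RLE, 0.00549 by upper quartile, 0.11 by total count and 0.00337 with a CPM filter (-0.39 to 0.19). Vegfb was 0.013 by DESeq2, 0.014 by RLE, 0.00258 by upper quartile, 0.034 with a CPM filter, 0.000452 with FPKM scaled by TMM, 0.0223 on protein-coding genes and 0.00397 after background subtraction (-0.77 to 0.48). Without a library, Pdk2 ran from -0.98 to 0.035, Vegfd from -0.27 to 1.52, Pgk2 from -1.63 to 7.61 and Acadvl from -0.039 to 0.36.

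With 3 libraries a group, an exact permutation test cannot go below 0.1, and the biological coefficient of variation was 0.80 over all tested genes and 0.336 to 0.524 along the trend at the 10 genes. Library F was the shallowest, and values near 0.632 CPM cannot be told from 0 there.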

Other observations

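Near-identical copies of the 10 genes were counted under their own symbols. Pgk2, the testis copy of Pgk1, had 1, 0 and 0 counts in controls and 0, 0 and 38 in Ybx1-KO, so library F held nearly all of them. Ldhc had at most 15 counts in a library.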
